A study of Mus musculus with 6 samples.

Results

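The mm9 assembly of the mouse genome holds, beside the assembled chromosomes, sequence that could not be put in its place. Pieces tied to a chromosome but to no position on it are collected under names such as chr1_random and chrY_random, and pieces tied to no chromosome are collected under chrUn_random. The peaks on these names were examined in MeDIP-seq data (sequencing of DNA fragments pulled down with an antibody to methylated cytosine) of primary mesangial cells from the mouse, contractile cells that hold the capillary tuft of the glomerulus together. Members were all peaks whose sequence name was not chr1 to chr19, chrX or chrY. They numbered 3034 of 579787 peaks over the 6 samples, and 853 of 170444 regions after peaks overlapping by at least 1 bp were joined. The rule also takes in the mitochondrial genome, chrM, with 23 of the 3034 peaks in 6 regions. The mitochondrial genome is a complete sequence and not an unplaced one, so it is described on its own and results are also given without it.

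There were 3 control samples and 3 samples that received TGF-β1 at 10 ng/ml for 72 h. TGF-β1 is a cytokine that drives matrix production and fibrosis in the kidney. Both groups were grown in medium with 25.5 mM glucose and 20% fetal bovine serum and used between passages 3 and 6. Neither the strain and sex of the donor mice nor a vehicle for the control samples is given in the sources used here, and peak lists hold no expression with which to check the cell type. The study calls the triplicates biological replicates without saying whether they came from separate animals or cultures, so a p-value measures the spread between these samples. The control samples held 10319496, 9407103 and 11494356 reads and the TGF-β1 samples 12748318, 12634300 and 13291419 reads, so that depth was higher in every TGF-β1 sample than in any control sample.

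In MeDIP, the yield over a region depends on how many of its CpG cytosines are methylated and on how many CpGs it holds. Sequence that is left out of assembled chromosomes is known to be rich in satellites and other repeats, because near-identical copies are hard to order. Such repeats are commonly methylated in somatic cells. The pileup of a peak is the number of extended reads stacked at its summit, and its fold enrichment is that pileup over the local background that the peak caller estimated from the reads around it. The local background is given below as a multiple of the sample's genome-wide average.

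Peaks on these names were taller, longer and more often shared than those on chr1 to chr19, and less enriched over their surroundings. In the control samples the median pileup was 22, 21 and 24, and in the TGF-β1 samples it was 24, 24 and 25, against 20, 19 and 22 and then 22, 22 and 23 on chr1 to chr19. It was 1.09-fold higher within a sample (log2 ratio 0.13 ± 0.01 SD, n = 6), in 6 of 6 samples. The median fold enrichment was lower in 6 of 6 samples, at 5.61 to 6.03 against 6.09 to 6.33 (log2 ratio -0.09 ± 0.03 SD, n = 6). The median peak was 16.2 ± 4.8 bp longer (SD, n = 6), with 360 to 370 bp against 338 to 358 bp. Of a sample's peaks, 45% to 60.6% overlapped a peak in all 5 other samples, against 39.5% to 51.1% on chr1 to chr19, a difference of 6.62 ± 2.39 percentage points (SD, n = 6). For each of these 4 contrasts the exact two-sided sign-flip test over samples gave p = 0.031, the smallest that 6 samples allow, and a Benjamini-Hochberg adjusted p of 0.031 over the 4. Among peaks with a fold enrichment of at least 5 alone, the log2 ratio of the median pileup was 0.00, that of the fold enrichment 0.02 (exact sign-flip p = 0.125) and the difference in sharing 1.78 percentage points (exact sign-flip p = 0.0938). Where at least 50% of both peaks had to overlap, the difference in sharing was 1.46 percentage points (exact sign-flip p = 0.0938). With means over peaks in place of medians, the log2 pileup ratio was 0.55 and the difference in length 69.1 bp. Without chrY_random, which held the most peaks, the log2 ratio of the median was 0.38 for pileup and -0.18 for fold enrichment, and the differences were 29.4 bp in length and 10.2 percentage points in sharing.

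**Figure D1:**
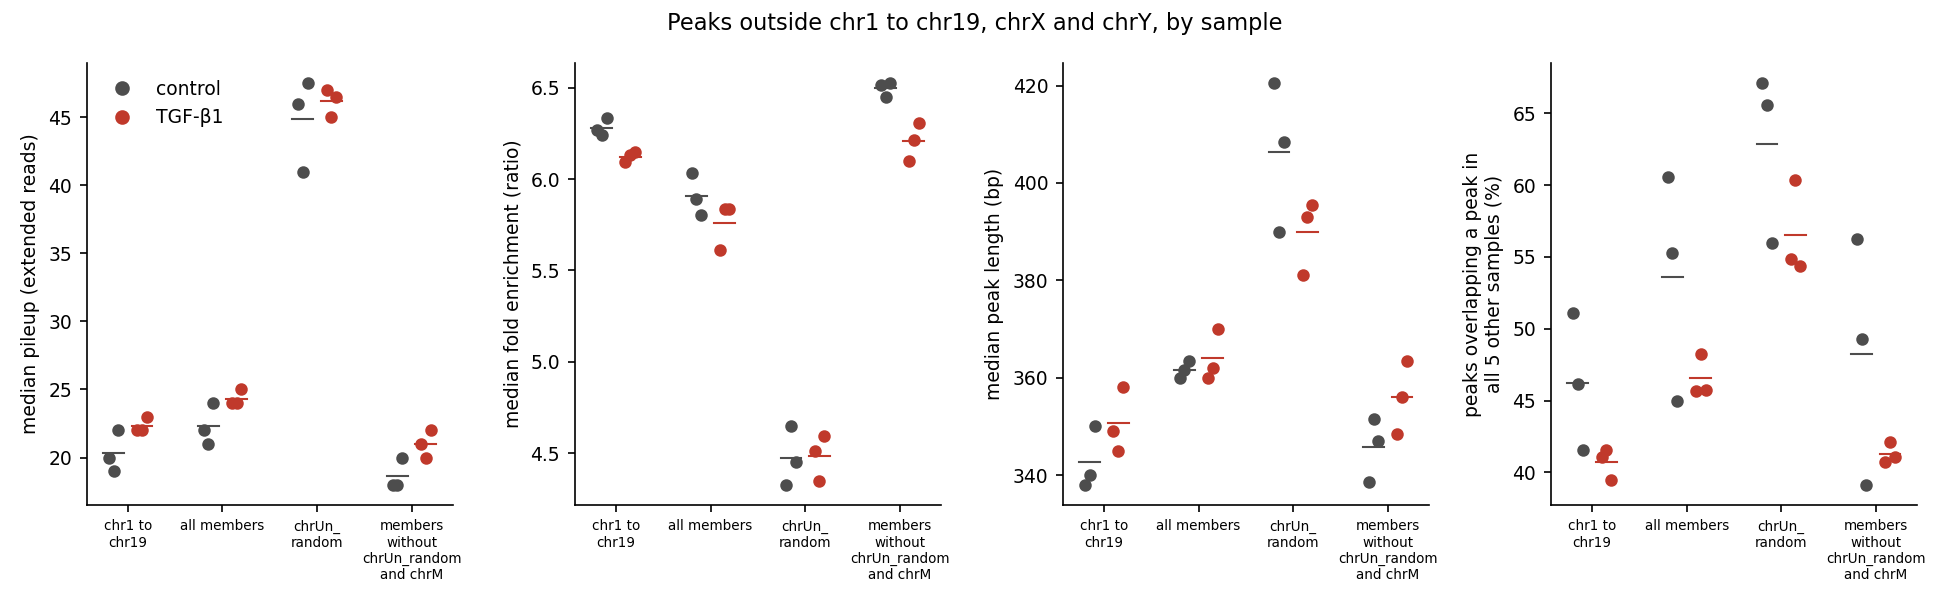
Median pileup, median fold enrichment, median length and the share of peaks overlapping a peak in all 5 other samples, for chr1 to chr19, all members, chrUn_random alone and the members without chrUn_random and chrM. Each point is 1 sample, bars are means of 3 samples, and the vertical axes do not start at 0. The median pileup of chrUn_random, between 41 and 47.5, lies far above the 18 to 22 of the members left when it is taken out.

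These differences rested on chrUn_random. Its median pileup was 46, 41 and 47.5 without and 47, 45 and 46.5 with TGF-β1. That was 2.13-fold the median of chr1 to chr19 (log2 ratio 1.09 ± 0.07 SD, n = 6), while its fold enrichment was 0.722-fold, its peaks 51.4 ± 17.9 bp longer and its share of peaks found in all samples 16.2 ± 2.4 percentage points higher (SD, n = 6; exact sign-flip p = 0.031 for each). Without chrUn_random and chrM the median pileup turned to the other side of chr1 to chr19, with a log2 ratio of -0.11 ± 0.04 (SD, n = 6) and lower values in 6 of 6 samples. The fold enrichment turned as well, to a log2 ratio of 0.03 ± 0.02 (SD, n = 6), higher in 6 of 6 samples. Both had an exact sign-flip p of 0.031 and a Benjamini-Hochberg adjusted p of 0.0625. The remaining peaks were 4.17 ± 6.15 bp longer (SD, n = 6; exact sign-flip p = 0.219) and more often shared by 1.30 ± 2.66 percentage points (exact sign-flip p = 0.3125). Leaving out chrM alone changed no direction and no side of the threshold among these 4 contrasts.

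The names differed widely in how many peaks they held. chrY_random, unplaced sequence of the Y chromosome, had 1040 peaks, chrUn_random 1028 and chr1_random 373. Next came chr8_random with 244, chr17_random with 122, chrX_random with 73, chr9_random with 53, chr4_random with 45 and chr13_random with 27. chr3_random had 5 peaks and chr16_random had 1. Together with the 23 of chrM these are all 12 names. The regions of chrY_random lay far apart, 5.39 per Mb of the stretch between its first and last region, against 69.1 on chr1 to chr19, 43.4 on chrUn_random and 86.0 on chr1_random. Over all names 73.6% of regions had a neighbour within 10000 bp, against 85.1% on chr1 to chr19. How much of each name is gap or could not be mapped uniquely was not measured here.

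**Figure D2:**
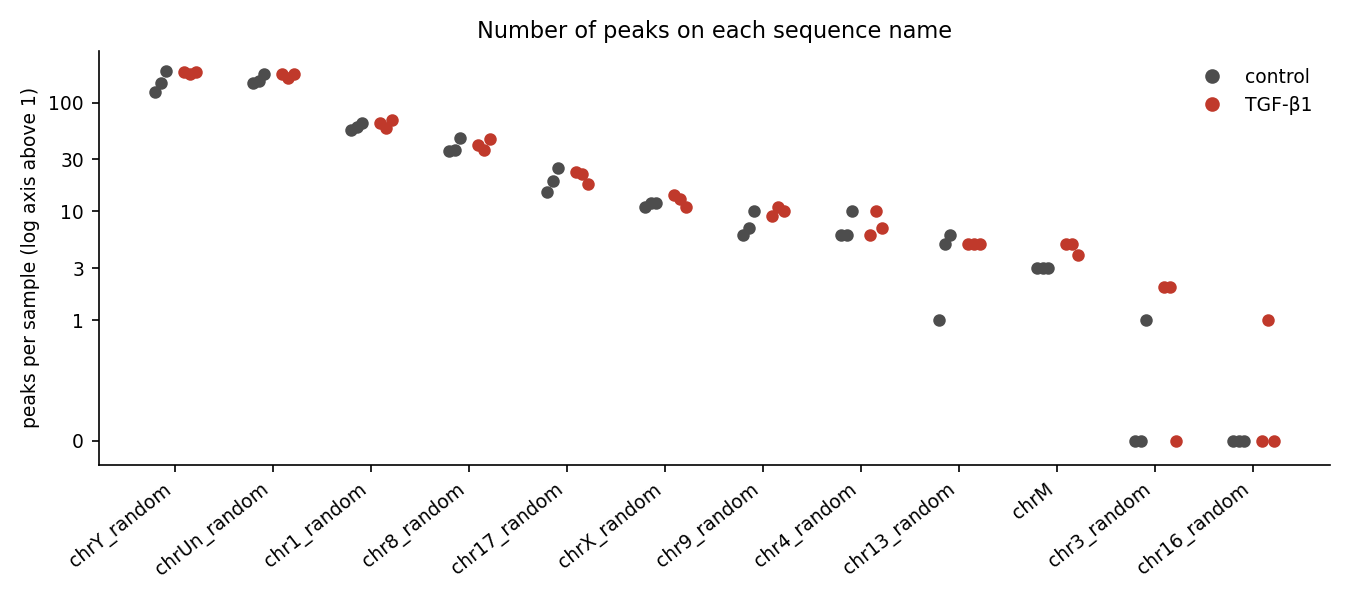
Peaks per sample on each of the 12 names, with 1 point per sample and the control and TGF-β1 samples side by side. The vertical axis is logarithmic above 1. In every name but chrM the control and TGF-β1 samples overlap.

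chrY_random held 315 regions. A peak was called in all 6 samples in 73 of them and in only 1 sample in 101. Its median pileup averaged 19.2 ± 1.5 (SD, n = 6), below that of chr1 to chr19 in 6 of 6 samples (log2 ratio -0.16 ± 0.06 SD; exact sign-flip p = 0.031, adjusted p = 0.0625). It was also below the median of the assembled chrY, 22.2 ± 3.2 (SD, n = 6), in 6 of 6 samples. Its fold enrichment exceeded that of chr1 to chr19 in 6 of 6 samples (log2 ratio 0.08 ± 0.02 SD; exact sign-flip p = 0.031, adjusted p = 0.0625). Length and sharing stood on both sides of chr1 to chr19, with 2 of 6 samples above in each (exact sign-flip p = 0.469 and 0.844). The median local background of its peaks was at the genome-wide average, 1.0 times, and none reached 5 times that average. Since 1.0 is also the lowest value in the lists, a lower local level would not be seen. The assembled chrX had similar medians. Its pileup was 19.25 ± 1.67, its fold enrichment 6.40 ± 0.17 against 6.54 ± 0.14 on chrY_random, and its background 1.0 times (SD, n = 6). These traits were thus not particular to chrY_random.

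chr1_random held 105 regions, 28 of them called in all 6 samples and 32 in a single one. Its median pileup averaged 22.1 ± 1.9 and that of chr1 21.5 ± 1.8 (SD, n = 6), with 4 of 6 samples above. Its fold enrichment was below that of chr1 in 6 of 6 samples, at 6.07 ± 0.34 against 6.32 ± 0.18 (SD, n = 6). The other random names showed no common direction against their own chromosome. The median pileup of chr8_random and chr17_random was below that of chr8 and chr17 in 6 of 6 samples, while that of chrX_random and chr4_random was above that of chrX and chr4 in 5 of 6. chr9_random, with 13 regions, had a fold enrichment above that of chr9 in 6 of 6 samples, 7.45 ± 0.89 against 6.25 ± 0.13 (SD, n = 6). These comparisons with the own chromosome were not tested, and names with few peaks give medians of few values.

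The local background set chrUn_random apart from the other random names. A background of at least 5 times the genome-wide average, a limit chosen after the values were seen, was reached by 59.2%, 54.1% and 51.6% of the peaks of chrUn_random in the control samples and 48.4%, 50.9% and 50.5% after TGF-β1, and by 0.309% to 0.598% of those on chr1 to chr19. The groups did not overlap on chrUn_random (exact permutation p = 0.1, the smallest possible), and among all members the share was 23.1%, 19.7% and 18.2% against 17.6%, 17.95% and 18.01%. On chr1 to chr19 the groups overlapped, with 0.329%, 0.533% and 0.598% against 0.309%, 0.352% and 0.339% (exact permutation p = 0.3). Such a share also falls when more peaks below the limit are called, and the numbers on each side of it were not tested. Over the 65 regions of chrUn_random with a peak in all 6 samples and a mean background at or above the limit, the median background was also lower in every TGF-β1 sample, 11.1, 10.9 and 10.2 against 9.58, 9.56 and 9.99 times the average (exact permutation p = 0.1). Depth was higher in the TGF-β1 samples, and its part was not tested. Of the 256 regions of chrUn_random, 103 reached the limit. Outside it only 1 region of chr8_random, 1 of chr9_random and all 6 of chrM did so. The 103 regions had a median pileup of 61.8 and a median length of 685 bp, and 63.1% of them had a peak in all 6 samples. The other 153 had a median pileup of 19.0 and a median length of 382 bp, and 20.9% of them had a peak in all 6 samples. The peak caller asks for more reads where the background is higher, so pileup and background are tied by construction.

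**Figure D3:**
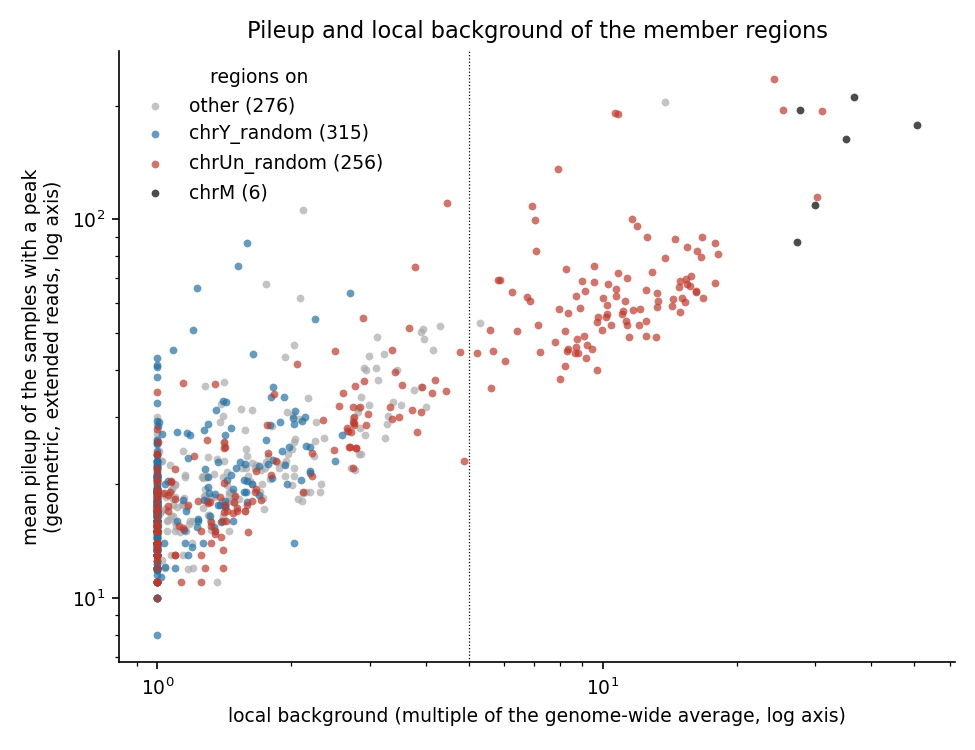
Pileup of each member region (geometric mean over the samples with a peak) against its local background as a multiple of the genome-wide average, both on logarithmic axes, with the number of regions per name in brackets. The dotted line marks 5 times the average. The regions to its right are 103 of chrUn_random, 6 of chrM and 2 of other names.

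Sorted into bins of background, members and chr1 to chr19 were alike under 2 times the average and differed more in the higher bins. Among peaks with a background under 2 times the average, the median pileup was 19.0 ± 1.4 on the members and 19.3 ± 1.5 on chr1 to chr19 (SD, n = 6), the median length 341 ± 8 bp and 342 ± 7 bp, the fold enrichment 6.42 ± 0.21 and 6.32 ± 0.18, and the share found in all samples 41.2% ± 6.2 and 40.8% ± 4.2. Among peaks from 2 to under 5 times, the median pileup was 32.2 ± 2.6 and 30.5 ± 2.7, the fold enrichment 5.45 ± 0.21 and 5.62 ± 0.17, and the share 55.2% ± 10.7 and 54.7% ± 4.7. The median length in that bin was 416 ± 26 bp against 376 ± 9 bp, and the ranges over the 6 samples did not overlap, from 386 to 462 bp against 363 to 385 bp. Among peaks at 5 times or more, 90 to 102 per sample on the members and 263 to 587 on chr1 to chr19, the median pileup was 63.7 ± 5.8 against 53.8 ± 5.5. The median length there was 554 ± 38 bp against 419 ± 13 bp, the fold enrichment 3.23 ± 0.10 against 4.22 ± 0.22 and the share in all samples 77.6% ± 3.9 against 59.8% ± 7.1. In these highest bins the ranges over the 6 samples did not overlap in length, from 491.5 to 590.5 bp against 404 to 435 bp, in fold enrichment or in sharing. The highest bin has no upper limit and takes in the chrM peaks, at 24.0 to 50.9 times the average. Background was therefore not matched within it, and its part in these differences was not tested. The bins were chosen after the values were seen and were not tested.

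High background was not spread evenly along chrUn_random. The sequence was split at its first region to reach 5 times the average, so by construction none of the 118 regions before it did. The highest of these 118 stood at 4.44, and 18 of them had a peak in all 6 samples. From 3549336 to the last region, ending at 5900257, there were 138 regions, 79 of them called in all 6 samples. The median over regions of their mean pileup was 18.1 in the first stretch and 56.4 in the second. Pileup is tied to background, on which the split was made. Of the 38 member regions longer than 1000 bp, 28 were on chrUn_random.

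**Figure D4:**
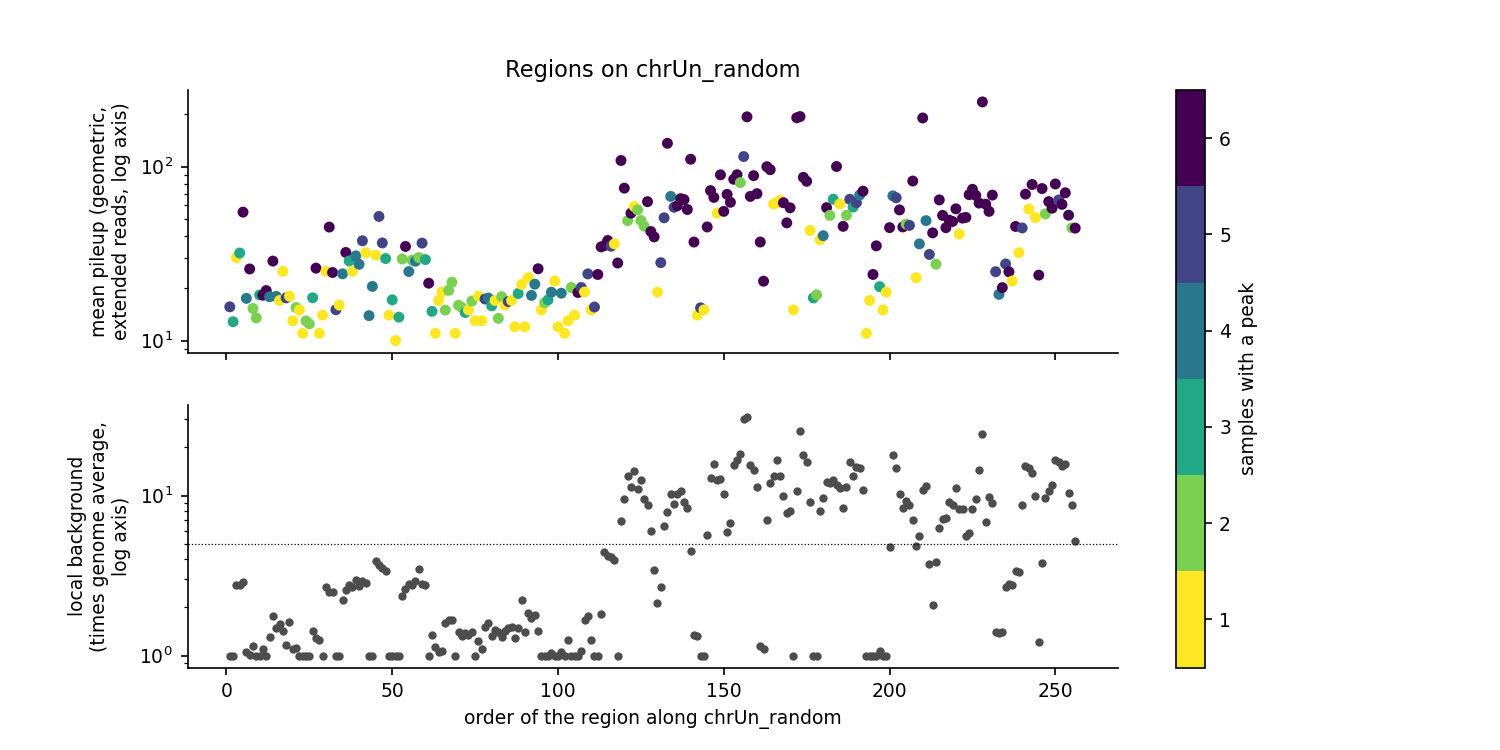
The 256 regions of chrUn_random in their order along the sequence, with the mean pileup coloured by the number of samples with a peak (upper panel) and the local background as a multiple of the genome-wide average (lower panel), both on logarithmic axes. Pileup, background and sharing step up together after region 118, where the background first exceeds the dotted line at 5 times the average.

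The tallest region of all members was chrUn_random:5495486-5497226. Its pileup was 237, 222 and 257 without and 236, 222 and 242 with TGF-β1, over a background 24.3 times the average. The groups overlapped in this pileup, which is not scaled for the higher depth of the TGF-β1 samples. Centred on the sample's median, its log2 fold change was -0.25, as given below. Over that background the fold enrichment was 5.11 to 5.61. Next on chrUn_random came chrUn_random:4523270-4525345, which 2 regions of chrM and 1 of chr9_random also exceeded, with 188, 186 and 192 against 195, 196 and 209, and it was also the third longest region in all 6 samples at 2076 bp. The longest regions were chrUn_random:4233469-4235847 at 2379 bp, with pileups of 92, 80 and 105 against 105, 99 and 124, and chrUn_random:5547336-5549570 at 2235 bp, with 53, 47 and 62 against 68, 62 and 78. On chr9_random:241958-243639 the pileup was 205, 204 and 198 against 215, 195 and 209, at a background 13.8 times the average and a fold enrichment of 7.50 to 8.24. It was the only region of chr9_random with such a background. No sequence of these regions is shown, since the genome used here does not carry the random names.

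Some stretches of chrUn_random repeated their own layout, a pattern noticed in the data and not tested. The longest run of regions with no gap over 10000 bp, chrUn_random:2371588-2510873, had 33 regions, of which 15 had a peak in only 1 sample and 1 in all 6. In its earlier part the steps between starts ran from 2205 to 9611 bp, and long and short ones did not take turns throughout. Several, such as 4932, 2350 and 5088 bp, were close to steps of the later part, and others, such as 3602 and 6021 bp, were not. From 2448872 on, long steps of 4798 to 5138 bp and short steps of 2199 to 2779 bp took turns up to a short step of 2453 bp. The steps of 2477 and 7312 bp at the end did not follow this. Over the whole run the distance from a start to the next but 1 ranged from 4888 to 15632 bp. Elsewhere, 8 regions from 1011812 and 8 regions from 1876675 lay in nearly the same order of distances. Their starts were 1422, 4860, 5489, 10003, 11467, 14784 and 15599 bp from the first region in one run, and 1457, 4933, 5458, 10039, 11520, 14809 and 15483 bp in the other. The mean pileup was 29.4 in the first of these runs and 30.1 in the second, with a median background of 2.75 and 2.78 times the average. Whether the sequences are copies of each other was not tested.

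Counted by region, a larger share was found in all 6 samples than on chr1 to chr19. With chrUn_random and chrM left out, the share of the other names together was close to that of chr1 to chr19. Of the 853 regions, 247 had a peak in 1 sample, 109 in 2, 73 in 3, 79 in 4, 100 in 5 and 245 in all 6. The share in all 6 samples was 28.7% (95% Wilson interval 25.8% to 31.9%, counting error only), against 24.5% on chr1 to chr19. The share in a single sample was 29.0% against 27.3%. Without chrUn_random and chrM the share in all 6 samples was 24.5%. By name it was 23.2% on chrY_random, 26.7% on chr1_random, 22.1% on chr8_random, 34.4% on chr17_random and 36.8% on chrX_random. On names with fewer regions it was 46.2% on chr9_random, 16.7% on chr4_random, 6.67% on chr13_random and 0% on chr3_random and chr16_random. For the 245 regions in all 6 samples, Pearson's r of log2 pileup between samples ranged from 0.887 to 0.951 across regions. On chr1 to chr19 it ranged from 0.675 to 0.799 over 40840 regions. Regions are not independent replicates, and the wider range of pileups on the members enters these correlations.

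The mitochondrial genome encodes respiratory chain subunits and the RNAs to translate them, and exists in many copies per cell. Of its 6 regions, 3 had a peak in all 6 samples. The region chrM:3862-5050 covered all of mt-Nd2, a subunit of complex I, with mt-Tw and parts of mt-Tm and mt-Ta, transfer RNA genes. The region chrM:12556-14339 covered the later part of mt-Nd5, all of mt-Nd6, both complex I subunits, mt-Te and the start of mt-Cytb. The region chrM:14696-15199 lay within mt-Cytb, the cytochrome b of complex III. The 200 bases of the NCBIM37 reference (plus strand) around the median summit of each follow in that order. CpG dinucleotides, the usual methylated context, are in capitals. They are chrM:4723-4922, within mt-Nd2, chrM:13852-14051, within mt-Nd6, and chrM:14819-15018, within mt-Cytb.
mt-Nd2 summit: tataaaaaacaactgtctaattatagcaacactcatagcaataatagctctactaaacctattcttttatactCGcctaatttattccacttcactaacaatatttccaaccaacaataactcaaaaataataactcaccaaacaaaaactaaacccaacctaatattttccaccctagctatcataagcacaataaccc
mt-Nd6 summit: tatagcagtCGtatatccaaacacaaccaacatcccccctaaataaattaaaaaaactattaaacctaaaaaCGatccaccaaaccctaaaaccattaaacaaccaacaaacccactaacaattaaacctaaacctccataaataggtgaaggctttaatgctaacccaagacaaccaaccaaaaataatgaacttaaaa
mt-Cytb summit: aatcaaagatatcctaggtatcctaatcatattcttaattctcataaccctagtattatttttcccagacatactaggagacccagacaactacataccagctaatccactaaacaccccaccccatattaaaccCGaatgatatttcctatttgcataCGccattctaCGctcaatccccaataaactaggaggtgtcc

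These windows held few CpGs. There was 1 in the mt-Nd2 window, 2 in the mt-Nd6 window and 3 in the mt-Cytb window, or 0.50, 1.0 and 1.5 per 100 bp. The 40838 windows of the same size around the summits on chr1 to chr19 with a peak in all 6 samples had a median of 3.50 per 100 bp, with the central 90% from 1.5 to 6.5. GC content was 30.5%, 33.0% and 39.0% in the mitochondrial windows against a median of 49.5%. The whole mitochondrial genome has 1.76 CpGs per 100 bp and a GC content of 36.7%. Over their full length the 3 regions held more CpGs than their windows, 1.18, 1.57 and 1.79 per 100 bp. Reads were extended to 282 to 291 bp, beyond the size of a window. Summits of chrM:12556-14339 ran from 13807 to 13984, so its window does not hold all of them. Over all 6 chrM regions, the peaks stood on a background of 24.0 to 50.9 times the genome-wide average, with a fold enrichment between 1.63 and 4.48.

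Over chrM:3862-5050 the pileup was 187, 161 and 188 in control samples, against 201, 220 and 220 after TGF-β1. Over chrM:12556-14339 it was 201, 183 and 211 against 215, 216 and 246. Over chrM:14696-15199 it was 144, 142 and 140 against 196, 168 and 199. The groups did not overlap in any of the 3, at the smallest p of 0.1 that an exact permutation test of 3 against 3 allows. Per 1000000 reads the groups overlapped in all 3, with 16.4 to 18.1 against 15.8 to 17.4 for the mt-Nd2 region. The background of chrM:3862-5050 was higher in every TGF-β1 sample than in any control sample. It was 27.0, 24.8 and 24.0 against 40.0, 41.1 and 28.5 times the average (exact permutation p = 0.1). In the other regions called in all 6 samples the groups overlapped (exact permutation p = 0.2 for each). Background there was 36.8, 35.1 and 32.0 against 43.3, 43.6 and 36.4 over chrM:12556-14339. Over chrM:14696-15199 it was 35.6, 33.9 and 30.9 against 40.6, 41.4 and 34.8. Fold enrichment was lower after TGF-β1 over chrM:3862-5050, at 4.41 ± 0.06 against 3.01 ± 0.60 (SD, n = 3; exact permutation p = 0.1). It was also lower over chrM:12556-14339, at 3.60 ± 0.12 against 2.78 ± 0.40 (SD, n = 3; exact permutation p = 0.1). Over chrM:14696-15199 the groups overlapped, 2.68 ± 0.20 against 2.43 ± 0.32 (SD, n = 3; exact permutation p = 0.4). The remaining 3 regions, chrM:483-801 in mt-Rnr1, chrM:2758-3111 in mt-Nd1 and chrM:11320-12017 across mt-Nd4, transfer RNA genes and mt-Nd5, were called in 1, 2 and 2 TGF-β1 samples and in no control sample. Depth was higher in the TGF-β1 samples, and its part in these differences was not tested.

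The number of member peaks was 411, 456 and 560 in control samples, against 545, 518 and 544 after TGF-β1, or 476 ± 76 against 536 ± 15 (SD, n = 3; exact permutation p = 0.4). The highest value was that of a control sample. They made up 0.504%, 0.505% and 0.557% against 0.536%, 0.516% and 0.516% of all peaks called in a sample, a difference within the spread of the samples (exact permutation p = 1). Of the 10 names with at least 10 peaks, none passed the test of peak numbers (smallest adjusted p = 0.833). chrY_random had 125, 150 and 197 peaks against 191, 185 and 192, and chrUn_random 152, 157 and 184 against 184, 169 and 182 (exact permutation p = 0.4 for each). Only chrM, with 3, 3 and 3 against 5, 5 and 4, had groups that did not overlap (exact permutation p = 0.1). Per 1000000 reads chrUn_random did not overlap either, with 14.7, 16.7 and 16.0 against 14.4, 13.4 and 13.7 (exact permutation p = 0.1). On chr1 to chr19 the same measure averaged 8563 in control and 7781 in TGF-β1 samples (exact permutation p = 0.4). As a share of a sample's peaks chrUn_random did overlap, at 0.187%, 0.174% and 0.183% against 0.181%, 0.168% and 0.172% (exact permutation p = 0.2). The contrast with chr1 to chr19 was not shown to differ between the groups in median pileup, fold enrichment, length or sharing (exact permutation p = 0.3, 1, 0.2 and 0.6).

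Regions with a peak in all 6 samples were tested for a different pileup after TGF-β1, with limma on log2 pileup from which the median of the sample had been subtracted. The limits were those given in the study's methods, an absolute log2 fold change above 2 at an adjusted p below 0.01. None of the 245 member regions passed them, and 0% of all 41744 regions tested did. Regions without a called peak in any 1 sample were left out. A large change could thus be seen only where every sample of the lower group still had a peak, so this result does not show that large changes were absent. The study tested read counts over merged peaks, not pileup of regions called in all 6 samples, so these results cannot be set against its calls. The smallest Benjamini-Hochberg adjusted p among the members was 0.999 in limma, and their log2 fold changes ran from -0.57 to 0.51 with a median of -0.04. At an unadjusted p below 0.05, 3 members were higher and 13 lower, against 1.96% higher and 2.22% lower of all regions tested. Scaled per 1000000 reads in place of the median, the counts were 0 higher and 31 lower, and of all regions 212 higher and 2387 lower. With the median centring, the 3 higher members were all on chrY_random and 9 of the 13 lower ones on chrUn_random. The median log2 fold change was 0.08 over the 73 tested regions of chrY_random and -0.09 over the 97 of chrUn_random.

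**Figure D5:**
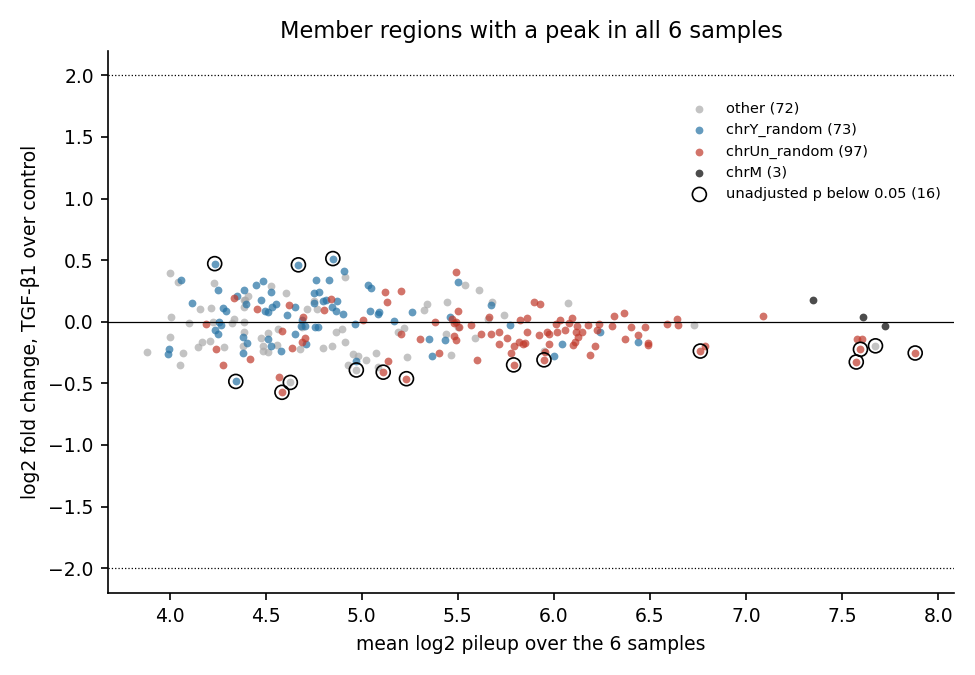
Log2 fold change of pileup (TGF-β1 over control, median-centred) against mean log2 pileup for the 245 member regions with a peak in all 6 samples, coloured by name. Circles mark the 16 regions with an unadjusted p below 0.05, and dotted lines an absolute log2 fold change of 2, which no region comes near.

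The regions with the smallest p in each direction had small changes. chrUn_random:5248929-5249793 had a pileup of 201, 188 and 204 in control samples, against 188, 166 and 199 after TGF-β1. Although the groups overlapped in this pileup, not scaled for depth, its centred log2 fold change was -0.33 ± 0.09 (SE, n = 3; limma unadjusted p = 0.000778, adjusted p = 0.999). The tallest region, chrUn_random:5495486-5497226, had a log2 fold change of -0.25 ± 0.08 (SE, n = 3; limma unadjusted p = 0.00244). chrUn_random:3334008-3334498 had pileups of 23, 24 and 36 against 24, 16 and 25. On the other side, chrY_random:24582594-24583000 had 15, 12 and 18 against 22, 24 and 26, and here the groups did not overlap (log2 fold change 0.47 ± 0.21 SE, n = 3; limma unadjusted p = 0.0331). chrY_random:51691482-51692151 had 13, 26 and 33 against 33, 40 and 39, and chrY_random:8203096-8203499 had 15, 20 and 27 against 31, 31 and 35. The adjusted p was 0.999 in limma for all 6.

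Calls confined to the samples of 1 group were few. A peak in all 3 TGF-β1 samples and in no control sample was found in 5 of the 853 member regions (0.586%), against 0.948% of all regions. The reverse was found in 0 member regions, against 0.233% of all regions. The 5 regions had low pileups. chrY_random:42628589-42628939 had 23, 28 and 19, chrY_random:2479325-2479760 had 13, 18 and 16 and chrY_random:28524645-28525078 had 12, 14 and 16 in the TGF-β1 samples. The remaining 2 were chrY_random:17986017-17986366 with 12, 11 and 14 and chr13_random:160289-161117 with 14, 9 and 16. All 5 had a background of 1.0 to 1.03 times the genome-wide average. The lowest pileup called anywhere was 8 in each control sample and 9, 9 and 10 in the TGF-β1 samples, so a pileup in the control samples just under the threshold is not seen in these lists.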

How the data were processed

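MeDIP-seq peak lists of 3 control and 3 TGF-β1 samples were used, with groups from the labels and culture conditions from the study's methods. Per the methods and the file headers, the authors mapped reads uniquely to mm9, counted reads with the same start once and called peaks in each sample separately with MACS2 2.1.0.20150731, keeping peaks with a q below 0.01, with no input library. The pileup as deposited is a signal that is not scaled for depth, the deposited fold enrichment is a ratio to the local background within up to 10000 bp, and p- and q-values were deposited as -log10. Reads outside called peaks were not used here. Unique mapping leaves out reads that match several copies of a repeat equally well, which bears on unplaced sequence.

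Peaks overlapping by 1 bp were joined into regions, checked against bedtools 2.31.1. The local background was recovered as (pileup + 1) divided by fold enrichment, minus 1, and divided by the sample's genome-wide value (reads times extension length over 1.87e+09 bp), to which the lowest value in each list was equal. Samples were compared by exact permutation, parts of the genome by exact sign flips over the 6 samples. Regions with a peak in all 6 samples were fitted with limma 3.58.1 in R 4.3.3 (Benjamini-Hochberg adjustment over all regions), on log2 of the highest pileup minus the sample's median, which was tested on simulated data. The study's test on read counts was not repeated. Named regions are the 5 tallest and 3 longest in all 6 samples, those with the 3 smallest limma p-values among higher and among lower regions, and regions called in 1 group only, the 3 tallest in each direction. The other 2 of these and the runs on chrUn_random were added after their values were seen. The members and lists were chosen with earlier results of these data known. Mitochondrial sequence and genes are from NCBIM37 and GENCODE vM1. Intervals cover counting error only.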

Additional observations from a re-analysis of the deposited data

How the results depend on the processing

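Peak lists leave out sequence below the caller's threshold, depth was higher in the TGF-β1 samples, and 3 samples a group cannot reach an exact p below 0.1. The cause was not tested for any change below.

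Requiring a -log10 q of at least 5 turned the TGF-β1 difference in the share of a sample's peaks, 0.000372 percentage points, to -0.00372, and that of the log2 pileup contrast, -0.012, to 0.00761. It left 3 regions called in all TGF-β1 and no control samples, in place of 5. Requiring a fold enrichment of at least 5 gave -0.00749 for the share, 0.00 for the log2 pileup contrast (no longer past the threshold), 0.0249 for that of fold enrichment, 1.78 percentage points for sharing, 0.333 bp and 0.572 percentage points for the TGF-β1 differences in the length and sharing contrasts, and 23.0% of member regions in all 6 samples (22.4% on chr1 to chr19). It left 1 region called only after TGF-β1 and gave 5 called only in control samples, against 0. Under this and the other alternatives, calls confined to 1 group were counted on the members alone. Without the share over all regions they say nothing particular to the members. Without chrY_random, the name with the most peaks, the TGF-β1 difference in share was -0.0125, that of the fold enrichment contrast -0.00721 and that of sharing 0.0425, with 32.0% of regions in all 6 samples and 1 region called only after TGF-β1. Per 1000000 reads the difference in peak number was -4.11 in place of 60.0. With chrX and chrY added to chr1 to chr19, the TGF-β1 difference in the fold enrichment contrast was -0.000343 in place of 0.00028. Joining up to 200 bp apart gave 25.0% of chr1 to chr19 regions in all 6 samples. At least 50% overlap of both peaks gave 1.46 percentage points for sharing.

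Alternatives chosen after seeing the data left out chrM, which turned the TGF-β1 differences in share and in the fold enrichment contrast to -0.000856 and -0.00369. Leaving out chrM and chrUn_random gave -0.106 for the pileup contrast and 0.0342 for that of fold enrichment, 4.17 bp for length, 1.30 percentage points for sharing and 24.5% of regions in all 6 samples, with TGF-β1 differences of 0.0329, -0.0294 and 2.33 bp in the first 3 contrasts.

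Leaving out each sample in turn gave 0.127 to 0.132 for the log2 pileup contrast, -0.0948 to -0.0806 for fold enrichment, 15 to 17.2 bp for length and 5.34 to 8.44 percentage points for sharing, none of which can pass the threshold with 5 samples (exact sign-flip p = 0.0625). The difference in share ran from -0.00852 to 0.018 and that of the fold enrichment contrast from -0.0189 to 0.0167. The share of regions with a peak in every sample left ran from 31.0% to 34.1% on the members and 26.7% to 30.4% on chr1 to chr19. The difference in peak number ran from 27.7 to 102, the latter without control replicate 3.

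Same-numbered control and TGF-β1 samples did not deviate together (r = -0.0464, 0.0432 and -0.13 for numbers 1, 2 and 3). Pairs of unlike number had r from -0.124 to 0.168. Values this close to each other cannot tell whether the numbers pair the samples, and the sources do not say. With the replicate number as a block, limma called 0 member regions. At an unadjusted p below 0.05 in that fit, 3 members were higher and 10 lower, against 730 higher and 803 lower of all 41744 regions. The difference in peak number stayed 60.0 (exact sign-flip p = 0.5) and no call changed. No member passed an adjusted p below 0.05 under any limma alternative run. The unadjusted counts of members ran from 0 to 7 higher and from 5 to 31 lower over those alternatives, with 147 to 497 members tested. Over all regions, with 32652 to 98681 tested, the counts ran from 212 to 2570 higher and from 802 to 2387 lower.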
